A study of Homo sapiens with 8 samples.

Results

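The genes of the C/EBP family, CEBPA, CEBPB, CEBPD, CEBPE, CEBPG, CEBPZ and DDIT3, were followed for the accessibility of the chromatin in and around them. They were chosen by name, and the regions of each gene were those that overlap its GENCODE gene body or the 100 kb on either side. Peaks of 4 lists were merged where they shared at least 1 bp, which gave 126658 regions, and 140 of them lay in the windows of these 7 genes. Accessibility was read by ATAC-seq, where a transposase inserts adapters into DNA free of nucleosomes, in wild-type MCF10A, an established human mammary epithelial line that is immortalised but does not form tumours. Cells received solvent, or the cytokine TGFβ1 at 5 ng/ml for 6, 24 or 72 h, which takes this line through an epithelial-mesenchymal transition (EMT). Each of the 4 conditions had 2 replicates, 8 libraries in all, but the authors called peaks on both replicates together, so there is 1 list per condition. Differences between conditions could therefore not be set against the spread of replicates, and none was tested.

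C/EBP proteins (CCAAT/enhancer-binding proteins) are bZIP transcription factors, which bind DNA as dimers through a basic region and a leucine zipper. C/EBPα, C/EBPβ, C/EBPδ and C/EBPε carry activation domains and act in differentiation, the acute-phase response and inflammation, and C/EBPβ is needed for normal development of the mammary gland. C/EBPγ lacks an activation domain, and CHOP, the product of DDIT3, forms dimers that do not bind the classic C/EBP site and serves in the response to unfolded proteins and amino acid shortage. CEBPZ shares the name only, since it encodes a CCAAT-box-binding protein without a leucine zipper.

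Each peak was deposited with an AUC, the area beneath the significance curve of the peak caller, which rises with read depth as well as with accessibility. The solvent list held 86209 peaks, and those of 6, 24 and 72 h of TGFβ1 held 107656, 118433 and 116720, all with an AUC of 200 or more. The depth behind them is unknown. The median log2 ratio to solvent at regions within 3 kb of a transcription start site (TSS) was 0.44, 0.38 and 0.25 at 6, 24 and 72 h. These medians were subtracted from every ratio, so that all ratios below are relative to such regions, while AUC values are given as deposited unless they are called scaled. A region without a peak in a list is one below the threshold of 200, and no ratio is given for it. All 10 basal epithelial marker genes, such as KRT5 and KRT14, had a promoter peak in solvent, with summed AUC values from 757 to 46988. Of 9 markers of blood, endothelium, liver and muscle, 5 had one, with AUC values from 261 to 1633. In that list PTPRC, CDH5 and MYH11 were at least 1.5-fold above solvent at 72 h, and the part of other cells in the results was not tested. Of the luminal genes ESR1, PGR, FOXA1 and GATA3, 3 of 4 had a promoter peak in solvent.

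Most accessible regions around the C/EBP genes were already open in solvent and kept their peak. Of the 140 regions, 104 (74.3%) had a peak in every list, against 62.6% of all regions, and 17 (12.1%) had one in the 3 TGFβ1 lists but not in solvent, against 14.3%. The median solvent AUC of a region was higher in the windows, at 1041 beside 754 for all regions. The shares of kept and gained peaks were not matched for it, and its part in them was not tested. At 6 h, 23 of 129 regions were gained, that is, had a peak with TGFβ1 and none in solvent. This is 17.8% (95% Wilson interval 12.2 to 25.3, counting error only) and stands beside 22.9% of all regions. At 24 h the gained regions were 27 of 133, or 20.3% (14.3 to 27.9), beside 29.8% of all regions, and at 72 h they were 24 of 130, or 18.5% (12.7 to 26.0), beside 29.3%. Losses of a solvent peak were rare. There was 1 lost region at 6 h, beside 0.551% of all regions, 1 at 24 h, beside 1.31%, and 2 at 72 h, beside 2.43%. With every list shortened to the length of the solvent list, 7, 5 and 4 regions were gained and 3, 9 and 15 were lost at 6, 24 and 72 h. The balance of gains and losses thus depends on the lengths of the lists.

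Where a region had a peak in both lists, it was called raised or lowered when its scaled AUC differed at least 1.5-fold from solvent. At 6 h, 13 of 105 regions were raised (12.4%, interval 7.38 to 20.0), beside 11.7% of all regions, and 0 were lowered, beside 1.4%. At 24 h, 21 of 105 were raised (20.0%, 13.5 to 28.6), beside 20.3%, and 3 were lowered, beside 3.22%. At 72 h, 18 of 104 were raised (17.3%, 11.2 to 25.7), beside 22.9%, and 3 were lowered, beside 3.9%. In this main setting the shares of raised regions were near the background at 6 and 24 h, and the background lay inside the counting interval at each time. Over the time course 24 regions were raised at some time, 9 of them at all 3 times, and 5 were lowered at some time. Without scaling the raised regions numbered 41 of 105, 34 of 105 and 26 of 104 (39.0%, 32.4% and 25%), beside 40.5%, 43.0% and 35.8% of all regions in the same setting. With peaks of an AUC of at least 400 they numbered 2 of 84, 7 of 82 and 6 of 80 (2.38%, 8.54% and 7.5%), beside 7.09%, 14.0% and 17.0%. Both of these settings put the windows below all regions at every time, and no counting interval was taken there.

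The split by distance from a TSS placed the lower share of gains on distal regions. Distal regions of the windows, more than 3 kb from any TSS, were gained in 8 of 43 cases at 6 h (18.6%), 9 of 44 at 24 h (20.5%) and 8 of 43 at 72 h (18.6%). All distal regions of the genome were gained in 26.8%, 35.2% and 35.4% of cases. The genome's share lay above the counting interval of the windows at 24 h (11.2 to 34.5) and 72 h (9.74 to 32.6), and inside it at 6 h (9.74 to 32.6). These shares too were not matched for the AUC of the regions. Regions within 3 kb of a TSS were gained in 17.4%, 20.2% and 18.4% of cases in the windows and in 16.2%, 19.7% and 17.8% over the genome. Among distal regions with a peak in both lists, 7, 10 and 9 of 34 were raised at 6, 24 and 72 h (20.6%, 29.4% and 26.5%), against 14.5%, 25.5% and 29.3% of all distal regions. The median scaled log2 ratio of distal regions was 0.13, 0.16 and 0.18 in the windows and 0.12, 0.23 and 0.27 over the genome. Of the 140 regions, 46 were distal, 76 lay near the TSS of another gene and 18 were promoter regions of the members.

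The promoters of the family stayed close to their level in solvent. The promoter value of a gene is the summed AUC of all regions within 3 kb of any of its TSSs. At CEBPA, a regulator of myeloid and fat cell differentiation, the deposited AUC was 4470 with solvent and 5303, 4830 and 4465 after 6, 24 and 72 h of TGFβ1. At CEBPB, the member that acts in mammary development, it was 6364, 8273, 7499 and 7008. At CEBPD, an acute-phase regulator, it was 9626, 11528, 11380 and 10204. These 3 genes had a higher deposited AUC than solvent at 6 and 24 h, by less than the typical promoter. After scaling, their log2 ratios at 6, 24 and 72 h were -0.20, -0.27 and -0.25 for CEBPA, -0.06, -0.14 and -0.11 for CEBPB, and -0.18, -0.14 and -0.16 for CEBPD.

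CEBPE, which acts in the maturation of granulocytes, was the weakest promoter of the family. Its AUC was 592, 864, 796 and 804 in solvent and at 6, 24 and 72 h, and its scaled log2 ratios were 0.10, 0.05 and 0.20. The promoter values of CEBPG, which encodes the partner without an activation domain, were 7505, 10637, 10033 and 8998, with scaled ratios of 0.06, 0.04 and 0.01. Those of DDIT3 were 7550, 10265, 9721 and 8162, with ratios of 0.00, -0.02 and -0.13. CEBPZ had 3927, 4939, 4456 and 4328, with ratios of -0.11, -0.20 and -0.11. Apart from CEBPE, every member had a promoter AUC of at least 3927 in each list, in solvent as well as with TGFβ1.

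None of the 7 promoters was raised or lowered 1.5-fold at any time. Over protein-coding genes with a promoter peak in both lists, 3.71%, 6.01% and 5.65% were raised and 0.252%, 0.618% and 1.03% were lowered at 6, 24 and 72 h (15069, 15049 and 15021 genes). The scaled ratio was below 0 for 4, 5 and 5 of the members, with member medians of -0.06, -0.14 and -0.11 beside -0.02, -0.03 and -0.04 for all coding genes. By summed AUC, CEBPA was the member furthest from 0, with ranks at percentile 5.30, 4.94 and 7.64 of coding genes. CEBPD was at percentile 6.84 at 6 h and at 23.5 and 18.8 later. The highest rank was that of CEBPE, at percentile 81.6 at 72 h. Without scaling, every promoter was above solvent at every time except CEBPA at 72 h. AUC per base was scaled by its own median log2 ratio at regions near a TSS. By this measure CEBPA turned to 0.13, 0.04 and 0.02 and CEBPG to -0.16, -0.20 and -0.19. CEBPZ was at 0.15 at 72 h, and CEBPB was furthest from 0 at 72 h, at -0.34. The directions of these small differences thus depend on the measure.

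Levels between genes were compared per length, as scaled AUC per kb of promoter peak. The scaling here was that of the summed AUC. These values thus rank genes within a list and do not give their change per base. In solvent this was 3280 for CEBPG, 2968 for CEBPD, 2813 for CEBPA, 2728 for CEBPB, 2409 for CEBPZ, 2273 for DDIT3 and 2208 for CEBPE. At 72 h the order was CEBPG (2743), CEBPA (2719), CEBPZ (2542), CEBPD (2506), CEBPE (2260), CEBPB (2056) and DDIT3 (1932). CEBPG was first in both lists, but CEBPA was first at 6 h (2793, beside 2664 for CEBPG) and 24 h (2659, beside 2623). The CEBPE promoter, lowest by its sum, was close to that of DDIT3 per length. With 1 list per condition, no spread is available to say which neighbours in this order differ.

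The window of CEBPA (chr19:33299934-33302534, minus strand, GRCh38) had the lowest ratio to solvent of the 7 at 24 and 72 h. It held 22 regions and overlapped the window of CEBPG, with which it shared 19. None of its 17 regions with a peak in both lists was raised at any time, 2 were lowered at 72 h, of which 1 lies 15.1 kb upstream of CEBPG in the shared stretch, and 1 was lost at all times. The scaled AUC summed over the window was 28981 in solvent, over 11.7 kb of peaks, and 28372 at 6 h over 13.0 kb, 27763 at 24 h over 12.1 kb and 26838 at 72 h over 11.6 kb. Per kb this was 2471, 2180, 2287 and 2304, on the scale of the summed AUC. The value per kb was below solvent at 6 h in every other window too, such as that of CEBPB (2238 in solvent and 1838 at 6 h). The log2 ratio of the sum at 72 h, -0.11, was at percentile 5.16 of 15659 windows of coding genes, whose median was 0.12. The windows of the other members were between percentiles 18.0 and 59.4 at 72 h.

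The single peak over the CEBPA start (chr19:33301870-33303458) carried the promoter values given above. A string of open regions lies downstream of the gene, and the strongest of them, 9.09 kb downstream (chr19:33292613-33293816), had an AUC of 2777, 3915, 3542 and 2851, with a scaled log2 ratio of -0.21 at 72 h. The region 28.2 kb downstream, with 1118, 1540, 1665 and 1072, was at -0.31. Further out, 60.9 kb downstream and in intergenic sequence (chr19:33241283-33241856), the AUC was 511, 507, 521 and 215. It was close to solvent as deposited until 24 h and lower at 72 h, and its scaled log2 ratio at 72 h was -1.49. That value was at percentile 0.312 of distal regions with a solvent AUC within 1.5-fold of it. A region 12.2 kb downstream (chr19:33290151-33290437) had a peak in solvent alone, with an AUC of 426, and a region 53.3 kb downstream was gained, with 0, 385, 585 and 297.

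The 151 bp around the summits of the most lowered region, which kept a peak of 215 at 72 h, and of the lost region are shown on the plus strand of GRCh38, because these were furthest below solvent around CEBPA. Neither stretch contains any of the motifs searched, so all letters are in lower case.
CEBPA +60.9 kb, lowered, chr19:33241562-33241712: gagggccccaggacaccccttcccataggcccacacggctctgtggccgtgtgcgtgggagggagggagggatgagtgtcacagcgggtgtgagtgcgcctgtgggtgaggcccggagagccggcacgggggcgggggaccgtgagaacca
CEBPA +12.2 kb, solvent alone, chr19:33290264-33290414: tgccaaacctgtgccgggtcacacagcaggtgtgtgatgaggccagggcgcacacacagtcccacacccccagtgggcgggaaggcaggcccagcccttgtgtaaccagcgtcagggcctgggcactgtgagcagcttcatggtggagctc

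The window of CEBPB (chr20:50190830-50192668, plus strand) held 37 regions, and 30 of them had a peak in both lists of each comparison. Raised regions numbered 3, 7 and 6 at 6, 24 and 72 h, lowered regions 0, 1 and 0, and gained regions 5, 6 and 5. The peak over the start (chr20:50190320-50192543) had an AUC of 5920, 7616, 6880 and 6155. A small peak 2.12 kb downstream, with an AP-1 motif near its summit, had 444, 657, 619 and 583, and a further one 2.75 kb downstream appeared at 72 h alone, with 271. The strongest distal region, 46.3 kb upstream, had 2601, 3731, 3805 and 3456, with a scaled ratio of 0.16 at 72 h.

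The region furthest above solvent in any window lay 53.4 kb upstream of CEBPB (chr20:50136867-50137598), in an intron of PEDS1, which encodes a desaturase of plasmalogen synthesis and whose TSS is the nearest one. Its AUC was 217, 1665, 1895 and 1845. It was near the threshold in solvent and high in all 3 TGFβ1 lists. Its scaled log2 ratios were 2.50, 2.75 and 2.84, and the last was at percentile 99.4 of distal regions of like solvent AUC. The next region towards CEBPB (chr20:50137724-50139280), with an AP-1 motif, had 1065, 2783, 2638 and 1900, with ratios of 0.94, 0.93 and 0.59. Another one, 49.4 kb upstream, had 206, 873, 648 and 288, with ratios of 1.64, 1.27 and 0.23. These 2 neighbours were chosen after their values were seen. The 3 regions differed in time course, the first staying high at 72 h and the others being highest at 6 h. On the other side of the gene, a region 93.7 kb downstream (chr20:50283886-50284755) had 1018, 1606, 2164 and 1899, with a ratio of 0.65 at 72 h and an AP-1 motif.

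The summit of the downstream region is shown because it has an AP-1 site (TGACTCA or TGAGTCA), in capitals.
CEBPB +93.7 kb, raised, chr20:50284422-50284572: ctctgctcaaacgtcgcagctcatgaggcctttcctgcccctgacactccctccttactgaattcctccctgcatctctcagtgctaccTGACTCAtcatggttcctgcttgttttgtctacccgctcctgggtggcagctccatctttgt

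CEBPD (chr8:47736913-47738164, minus strand) had the highest promoter sum and the fewest regions, 11. Its window had 2, 3 and 3 raised regions of 7 at 6, 24 and 72 h, and 1 lowered region at 24 h. Within 3 kb of the start, 3 regions with different courses lay next to each other. The peak over the start (chr8:47737142-47739175) had 7289, 8459, 8314 and 7655, with scaled log2 ratios of -0.23, -0.19 and -0.18. The peak beyond the gene's 3′ end (chr8:47735954-47736938), with its summit 1.32 kb from the start, had 219, 1053, 1048 and 727. It was near the threshold in solvent and at least 1.5-fold raised at every time, with ratios of 1.82, 1.88 and 1.48, the last at percentile 89.7 of regions of like AUC near a TSS. The peak with its summit 2.74 kb from the start (chr8:47734496-47735569), in a UTR of the neighbouring DNA repair gene SPIDR, had 2117, 2015, 2018 and 1822, with ratios of -0.51, -0.45 and -0.46, at percentile 4.17 at 72 h. The near-constant promoter sum of CEBPD therefore holds a raised and a lower component.

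Away from the gene, 85.0 kb upstream in an intron of PRKDC, the DNA-dependent protein kinase, the AUC was 405, 726, 878 and 983, with a ratio of 1.03 at 72 h. A region 85.3 kb downstream in an intron of SPIDR (chr8:47652726-47653346), chosen after its values were seen, had 381, 985, 1507 and 1693, with ratios of 0.93, 1.60 and 1.90 and percentile 98.2 of like regions. Both were higher at each later time. Regions 53.7 and 68.8 kb downstream were gained at all times, with 312, 422 and 503 for the first and 233, 455 and 283 for the second.

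CEBPE (chr14:23117036-23120256, minus strand) had no peak over its annotated start. Its promoter value came from a small region whose summit lies 0.763 kb upstream (chr14:23120818-23121118). Raised regions of the window numbered 4, 6 and 4 of 23 at 6, 24 and 72 h, and gained regions 5 of 28 each time. The region closest to the gene's other side, 5.04 kb from the start and beyond its 3′ end (chr14:23114847-23115934), was the strongest distal one. Its AUC was 1082, 2155, 2618 and 3070, higher in each later list, with scaled ratios of 0.55, 0.90 and 1.26. At 72 h it was at percentile 98.3 of distal regions of like AUC, and CEBPE has the nearest coding TSS. Its summit lies near an AP-1 site.

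Upstream of CEBPE the window crosses SLC7A8, the gene of an amino acid transporter. In one of its introns, 51.2 kb from the CEBPE start (chr14:23171306-23171991), the AUC was 599, 1336, 1430 and 1514, with a ratio of 1.09 at 72 h. A region in a UTR of SLC7A8 34.2 kb upstream, chosen after its values were seen, went the other way, with 1868, 1863, 1485 and 1237, ratios of -0.45, -0.71 and -0.84, and percentile 1.61 of like regions near a TSS. On the side of the proteasome gene PSMB11, 78.3 kb downstream (chr14:23041657-23042053), a region had no solvent peak and an AUC of 492, 935 and 894 with TGFβ1, the largest value at 72 h among the gained regions of all windows. A gained region 65.1 kb upstream, in a UTR of RNF212B, was weaker, with 273, 316 and 378.

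The raised and the gained region of the CEBPE window are shown with AP-1 sites in capitals. The first has 1 site and the second has none.
CEBPE +5.04 kb, raised, chr14:23115141-23115291: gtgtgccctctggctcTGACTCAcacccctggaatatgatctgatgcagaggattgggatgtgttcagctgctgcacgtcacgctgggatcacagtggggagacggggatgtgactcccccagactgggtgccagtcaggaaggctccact
CEBPE +78.3 kb, gained, chr14:23041876-23042026: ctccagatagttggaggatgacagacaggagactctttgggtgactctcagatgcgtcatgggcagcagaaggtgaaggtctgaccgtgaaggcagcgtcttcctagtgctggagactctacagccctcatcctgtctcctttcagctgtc

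CEBPG (chr19:33373685-33382686, plus strand) had 5 promoter regions, more than any other member, and its window held 23 regions. The peak over the start (chr19:33373167-33374696) had an AUC of 4525, 5779, 5460 and 4691, with scaled ratios of -0.09, -0.11 and -0.19. A region 2.59 kb upstream had 1076, 1563, 1388 and 1233. Inside the first part of the gene, regions 2.99 and 3.40 kb downstream had 704, 1215, 1070 and 1085, and 1200, 1638, 1697 and 1624. Between them and the start, 2.27 kb downstream in a CEBPG intron (chr19:33375802-33376032), a region was gained at all times, with 441, 419 and 365 and an AP-1 site near its summit. Ratios at 72 h were thus below 0 at the start and upstream, and above 0 in the intron, at 0.38 and 0.19.

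Raised regions of the CEBPG window numbered 1, 2 and 2 of 19 at 6, 24 and 72 h. At its far end, 99.5 kb downstream in an intron of the peptidase gene PEPD (chr19:33473037-33473639), the AUC was 246, 906, 1487 and 1662. It was higher in each later list, with ratios of 1.44, 2.21 and 2.51 and percentile 98.7 of like regions, and its summit carried an AP-1 site. A PEPD intron region 33.3 kb downstream had 487, 782, 799 and 844 and a ratio of 0.55, just under 1.5-fold. A region 15.1 kb upstream, chosen after its values were seen, was lowered, with 583, 770, 537 and 382 and a ratio of -0.86 at 72 h. The strongest distal region, 23.1 kb upstream, had 3029, 3627, 3261 and 3254 and a ratio of -0.14.

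The gained intron region and the PEPD region are shown because both have an AP-1 site, in capitals, within the stretch around the summit.
CEBPG +2.27 kb, gained, chr19:33375883-33376033: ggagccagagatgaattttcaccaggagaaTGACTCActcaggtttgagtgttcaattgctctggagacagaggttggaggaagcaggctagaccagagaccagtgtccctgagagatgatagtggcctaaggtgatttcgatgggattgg
CEBPG +99.5 kb, raised, chr19:33473124-33473274: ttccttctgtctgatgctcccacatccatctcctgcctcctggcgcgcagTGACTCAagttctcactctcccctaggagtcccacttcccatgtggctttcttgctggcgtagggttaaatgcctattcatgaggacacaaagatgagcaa

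CEBPZ (chr2:37201612-37231596, minus strand) had a single promoter region (chr2:37230670-37232540), which also covers the start of NDUFAF7, an assembly factor of mitochondrial complex I transcribed the other way. The promoter value therefore belongs to both genes. Of the 12 regions in the window, 2 of 9 were raised at each time and 3 of 12 gained at each time. The raised region named by the rule lay 51.8 kb upstream in an intron of the kinase gene PRKD3 (chr2:37283110-37283560), with 402, 1006, 1053 and 1144 and ratios of 0.88, 1.01 and 1.26, and it has an AP-1 site within 100 bp of its summit. The strongest distal region, in a UTR of EIF2AK2, which encodes the RNA-activated kinase PKR, had 1101, 1579, 1565 and 1693, with a ratio of 0.37. Gained regions in an intron of SULT6B1 and in an exon of PRKD3-DT were weak, with at most 369.

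DDIT3 (chr12:57516588-57521737, minus strand) lies in the window densest in other genes, where 24 of 25 regions were within 3 kb of a TSS. The promoter sum of DDIT3 came from 4 regions, among them a peak over the start of MBD6 (chr12:57522026-57524017), with 2916, 4049, 3774 and 3117. The peak inside DDIT3, with its summit in an intron (chr12:57519524-57521127), had 4634, 5652, 5352 and 4675, with scaled ratios of -0.16, -0.17 and -0.23. Of the other 2 regions, one in a UTR of MARS1 was gained at all times, with 310, 595 and 369, and one over the annotated start had 255 at 6 h alone. At DDIT3 itself the level thus differed little from solvent.

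Around DDIT3, 5, 6 and 7 regions were gained and 1 was raised at each time, though not the same one throughout. At the start of INHBE, the gene of the activin βE subunit of the TGFβ superfamily (chr12:57452197-57452657), chosen after its values were seen, the AUC was 340, 663, 969 and 892, with ratios of 0.52, 1.13 and 1.14. It was the raised region at 24 and 72 h. The one raised at 6 h lay in an INHBE exon, with ratios of 0.64, 0.48 and 0.26, and was likewise chosen after its values were seen. In an INHBE intron (chr12:57454533-57454885) a weak peak of 277 in solvent, 400 at 6 h and 272 at 24 h was lost at 72 h, and it contains the C/EBP-ATF element TGATGCAA. The strongest gained regions at 72 h lay in an intron of PIP4K2C, with 288, 408 and 599, and in a UTR of ARHGAP9, with 429, 515 and 578.

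The C/EBP-ATF element, bound by dimers of C/EBP and ATF proteins such as CHOP or C/EBPγ with ATF4, was present in the promoter regions of 3 members. Searched over whole regions and both strands, TGATGCAA was found 2 times in the DDIT3 peak, and 1 time each in the start peaks of CEBPG and CEBPB, the last in the 3′ part of the gene. It was found in 6 of the 94 window regions near a TSS (6.38%) and in 2.23% of all regions near a TSS. At distal regions it was in 1 of 46 (2.17%), beside 2.62%. These shares were not matched for the width of the regions. Within 100 bp of the strongest summit it was in 2 of 94 regions near a TSS (2.13%, beside 1.11%), both in INHBE introns. There it was in 0 of 46 distal regions, beside 1.58%. In 3 of the 4 promoter matches the element lies outside annotated UTRs, and the 1 at CEBPB lies in a UTR. The matches are shown with 11 bases on either side on the plus strand, the element in capitals.
DDIT3 first match, chr12:57519677-57519706: cggggctggccTGATGCAAtggttacacag
DDIT3 second match, chr12:57520802-57520831: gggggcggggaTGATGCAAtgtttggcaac
CEBPG match, chr19:33374060-33374089: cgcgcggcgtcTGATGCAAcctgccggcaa
CEBPB match, chr20:50192385-50192414: ggtttcgaagtTGATGCAAtcggtttaaac

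The second DDIT3 match lies beside TTTGGCAA (chr12:57520823-57520830), which has the C/EBP pattern TTNNGCAA. All 3 peaks stayed within 1.5-fold of solvent at every time. A match is a description of the sequence and says nothing of binding in these cells.

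The C/EBP pattern TTNNGCAA itself was less frequent in the windows than over the genome. Within 100 bp of the strongest summit, on both strands, it was found in 8 of the 140 regions (5.71%), beside 12.6% of all regions. It was found in 3 of 94 regions near a TSS (3.19%, beside 9.28%) and in 5 of 46 distal regions (10.9%, beside 14.4%). Its stricter forms TTGCGCAA, TTGTGCAA, TTACGCAA and TTATGCAA, which are part of the same pattern, were found in 1 region (0.714%, beside 3.06%). Over whole regions the shares were 20.2% near a TSS and 23.9% at distal regions, beside 23.9% and 24.4%, so the lower share held for the summits and was small over whole regions. The strict forms over whole regions went the other way at distal regions, with 5 of 46 (10.9%) beside 5.81%, and were in 1 of 94 regions near a TSS (1.06%) beside 5.18%.

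AP-1 sites, which bind dimers of JUN and FOS proteins, were found near the summits of 14 of 46 distal regions in the windows (30.4%, beside 37.5%). They were found in 5 of the 9 distal regions raised at 72 h (55.6%), beside 47.4% of all raised distal regions, but in 2 of the 8 gained at 72 h (25%), beside 40.8% of all gained distal regions. The C/EBP pattern was found in 1 of the 9 raised, beside 12.2%, while over the genome it was found in 28.7% of distal regions lowered at 72 h. The windows held 1 lowered distal region, the one 60.9 kb from CEBPA, and it had neither. The SMAD palindrome GTCTNGAC was found in 2 distal regions (4.35%, beside 1.42%), both upstream of CEBPB and gained, that is in 2 of 8 distal regions gained at 72 h (25%), beside 1.61% of all, and the CRE TGACGTCA in none, beside 0.52% of all regions.

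The size of a ratio was tied to the solvent AUC, and most raised regions were weak ones. Over all regions with a peak in solvent and at 72 h, the lowest of 20 equal bins of solvent AUC, with a median AUC of 219, had a median log2 ratio of 0.71 and a 95th percentile of 2.21. The highest bin, with a median AUC of 5615, had a median of -0.12 and a 95th percentile of 0.13. Against regions of their own AUC, the CEBPB region at -53.4 kb, the CEBPG region at +99.5 kb, the CEBPE region at +5.04 kb and the CEBPD region at +85.3 kb were the members above the 98th percentile at 72 h. The lowest were the CEBPA region at +60.9 kb, at percentile 0.312, and the CEBPE region at -34.2 kb, at percentile 1.61. Only the CEBPB region at -53.4 kb (99.4) lay above the 99th percentile, and only the CEBPA region at +60.9 kb below the 1st. Centring on regions of like AUC, an alternative added after the data were seen, left 9, 14 and 10 raised regions and gave 1, 10 and 8 lowered ones at 6, 24 and 72 h. The share over all regions was not taken in this setting, so these counts have no background beside them.

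**Figure D1:**
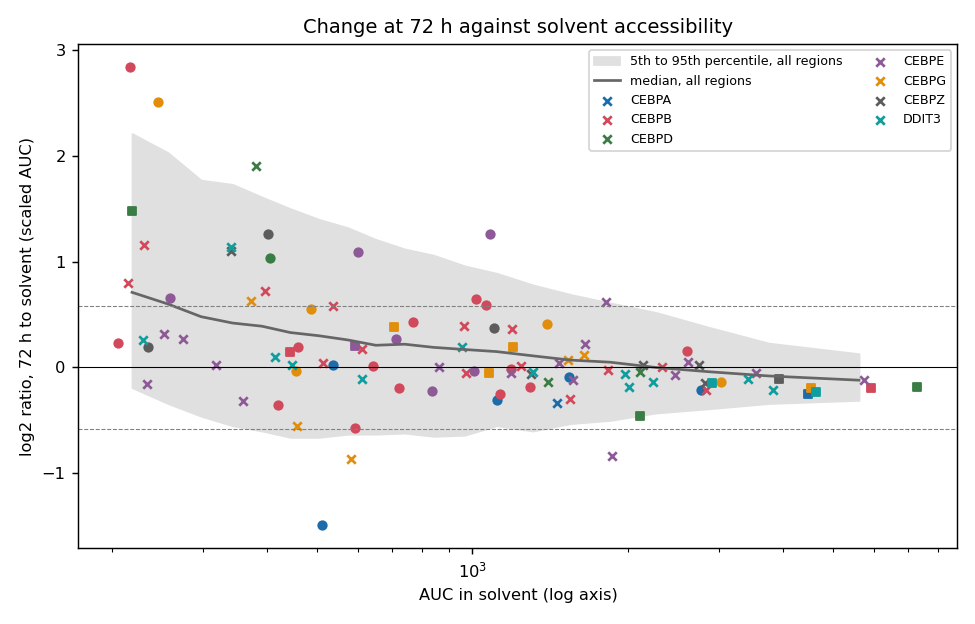
Scaled log2 ratio at 72 h to solvent (vertical) against the AUC in solvent (log axis) for window regions with a peak in both lists; squares are promoter regions of the gene, circles distal regions and crosses regions near another TSS, coloured by gene. The grey band is the 5th to 95th percentile and the line the median of all regions in 20 bins; members with a weak solvent peak spread from -1.49 to 2.84, whereas the promoters of large AUC lie just below 0.

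Among other genes of the same pathways 1 promoter passed 1.5-fold. Over all coding genes 3.71% to 6.01% were raised and 0.252% to 1.03% lowered. Lists of 14, 12 and 16 genes are too short to be told apart from these shares. Of 14 genes of the unfolded-protein and amino acid response, such as ATF4, TRIB3 and ASNS, all had a promoter peak in every list, and none was 1.5-fold raised or lowered. Their median scaled log2 ratio was -0.08, -0.12 and -0.16 at 6, 24 and 72 h, beside -0.02, -0.03 and -0.04 for all coding genes. Of 12 inflammatory and acute-phase genes that C/EBP proteins are known to bind, 8 had a promoter peak in solvent, and none of these was raised or lowered, with medians of -0.08, -0.17 and -0.10. The lowest of the stress and of the inflammatory list at 72 h were DDIT4, a stress-induced inhibitor of mTOR signalling, and S100A9, a calcium-binding protein of inflammation, both chosen after their values were seen. The promoter AUC of DDIT4 was 13890, 16080, 14358 and 11629, with ratios of -0.23, -0.33 and -0.50, at percentiles 3.22, 2.92 and 1.54 of coding genes. That of S100A9 was 3799, 4158, 3670 and 3355, with ratios of -0.31, -0.43 and -0.43, at percentiles 1.26, 1.4 and 2.24. Highest at 72 h in the inflammatory list was IL1B, with 3283, 4965, 5237 and 5645. Its ratios were 0.16, 0.29 and 0.54, just under 1.5-fold and at percentile 93.6 at 72 h. In the stress list the highest at 72 h was ATF5, with a ratio of -0.03. ORM1, which encodes an acute-phase plasma protein, had no promoter peak in solvent and an AUC of 244, 234 and 460 with TGFβ1.

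Of 16 regulators and related bZIP genes, such as STAT3, NFIL3 and TRIB1, 15 had a promoter peak in every list, and the medians were -0.01, -0.02 and -0.11. The exception among them was HLF, a bZIP factor of the PAR subfamily, whose promoter AUC was 1267, 1466, 1107 and 917, with ratios of -0.23, -0.57 and -0.71, the last past 1.5-fold and at percentile 0.686 of coding genes. Among the 3 coding genes whose promoter pattern over the 3 times was most like that of CEBPA, by Euclidean distance of the scaled log2 ratios over 10899 candidates, were RAB2A (0.0164) and PPP2R5A (0.0192). With 3 times and this many candidates such close matches carry no weight of their own.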

How the data were processed

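Per the submitters' processing notes and the study's methods, reads were trimmed with Trimmomatic 0.38, mapped to GRCh38 with Bowtie2 2.4.5, filtered with Picard and SAMtools 1.4.1, and peaks were called with Genrich 0.5, set for ATAC-seq, from the 2 replicates of each condition jointly. Blacklisted regions were removed. The signal column deposited by the authors is the AUC of the peak caller, not scaled between lists, and the authors' threshold was 200. The deposited −log10 q values served as a check of the lists only, and the smallest was 2.81. The labels put the solvent samples at time 0, but the study also describes 72 h of solvent. The lists hold no read totals or replicate values, so depth and replicate error are unknown, and the 95% Wilson intervals cover counting error only.

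The lists were merged over 23 chromosomes, and genes, TSSs and UTRs came from GENCODE 44, with the sequence from hg38. Lists were assigned to conditions by their names. AUC values were summed per region and list and scaled by the median log2 ratio to solvent at regions within 3 kb of a TSS with a peak in both lists (32923, 32594 and 32098 regions at 6, 24 and 72 h). Promoters, pathway lists and motifs were compared with all coding genes or all regions, with no test, since there is 1 list per condition. Like regions share the class (near a TSS or distal) and have a solvent AUC within 1.5-fold. A region in the windows of CEBPA and CEBPG was described with the gene of the nearer TSS.

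Named were, for each gene, its promoter regions, the distal region of largest solvent AUC, up to 2 distal regions of largest change at 72 h, up to 2 gained in all TGFβ1 lists and up to 2 lost at 72 h, 45 regions in all; others are stated as chosen after their values were seen. Genes, lists and rules were chosen with earlier results of these data known. Of the genes outside the family, those past 1.5-fold were named. A gene of like pattern and a sequence are not reported here. Procedures were tested on simulated lists. Alternatives changed the scaling, the AUC minimum, list length, window, fold, AUC per base, the promoter distance and the motif search. Scripts used scipy 1.17.1, pandas 2.3.3, numpy 2.4.6, matplotlib 3.10.9 and Python 3.11.15.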

Additional observations from a re-analysis of the deposited data

How the results depend on the processing

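No paired analysis was possible because each list was called on both replicates together, and for the same reason no replicate could be left out. The promoter ratios were recomputed in 126 cases, and 0 moved by over 1.5-fold. A reversal was counted only for ratios past 1.5-fold, and no promoter had one, so none could be found. Leaving out the scaling, or scaling by all shared regions, shifts all ratios of a time by the same amount. That amount is below 1.5-fold, so these 2 settings could not move a ratio further. Without scaling the promoter ratios reached at most 0.55, and in the scaled alternatives they ranged from -0.39 to 0.22. By AUC per base, CEBPA, CEBPG and CEBPZ changed sign at 1 or more times. All counts below are given for 6, 24 and 72 h, in this order, where all 3 are named. With lists of equal length, gained regions numbered 7, 5 and 4 and lost regions 3, 9 and 15, beside 8.69%, 11.9% and 13.8% gained and 5.44%, 9.47% and 11.6% lost of all regions, and 1 region was lowered at 72 h. With a minimum AUC of 400, 2, 7 and 6 regions were raised, 3 and 5 were lost at 24 and 72 h, and 1 was lowered at 72 h. Without scaling, 41 and 34 were raised at 6 and 24 h and 0 lowered at 24 h. Scaled by all shared regions, 8 and 6 were lowered at 24 and 72 h. By AUC per base, 7, 12 and 9 were raised and 4, 0 and 5 lowered. With a fold of 2, 4, 11 and 11 were raised and 0 and 1 lowered at 24 and 72 h. In windows of 50 kb, 9, 8 and 9 were gained, 4, 7 and 4 raised and 1 lost at 72 h. Centred on regions of like AUC, 10 were raised at 72 h and 1, 10 and 8 lowered. The C/EBP share was 23.9% at distal regions and 20.2% near a TSS over whole regions, and 2.17% and 0.0% with the strict forms. Narrower windows and a higher fold leave fewer regions by construction, and the cause of the other differences was not tested. Where no share over all regions is given here or above for a setting, none was taken. Such counts describe the windows only and cannot be set against the genome.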
